A study of Mus with 12 samples.

Results

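Transcripts of 8 Bcl2 family genes were followed in mouse blood: the survival genes Mcl1, Bcl2, Bcl2l1, Bcl2a1b and Bcl2a1d, and the death genes Bcl2l11, Bax and Bak1. They were taken by gene name from the deposited blood table, where these 8 of 25247 genes each had 1 entry. The question put to them was whether survival genes associated with myeloid, lymphoid and erythroid cells moved alike across the 4 treatment groups. Blood was collected on day 30 from female BALB/c mice bought at 6 weeks of age, with shaved dorsal skin in every group and 3 libraries per group. The Solvent group was painted with acetone and olive oil alone. The DNCB group was sensitized with 1% and challenged with 0.5% 1-chloro-2,4-dinitrobenzene, a hapten that induces atopic dermatitis-like inflammation. The scMSC group had the same DNCB course and received human umbilical cord mesenchymal stem cells (MSCs) under the skin, in doses of 2e6 cells in 100 µL. The scivMSC group had the DNCB course too and received 50 µL of such a dose under the skin and 50 µL in the tail vein. No group given DNCB and an injection without cells is described, so the cells and the injection cannot be told apart. The sources used here do not say whether a library was 1 mouse or a pool, and p-values measure the spread among these libraries.

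Bcl2 family proteins decide whether the outer mitochondrial membrane is breached during apoptosis. Mcl1, Bcl2, Bcl-xL (the product of Bcl2l1) and the A1 proteins (products of the Bcl2a1 genes) hold the pore-forming proteins Bax and Bak in check. BH3-only proteins such as Bim, the product of Bcl2l11, bind the survival proteins and release that brake. In blood the survival proteins differ in weight among lineages, without a strict division. Neutrophils depend on Mcl1, mature lymphocytes rely heavily on Bcl2, and maturing red cells and platelets on Bcl-xL. A1 is found in granulocytes and activated lymphocytes. A lineage named with a gene below is thus an association, not a readout of that cell type.

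The libraries held between 52.2e6 and 65.1e6 estimated counts, and hemoglobin genes took between 91.3% and 95.6% of the summed FPKM (fragments per kilobase of transcript and per 1e6 fragments). Erythroid markers were abundant in every library, and markers of neutrophils, T cells, B cells and platelets were all above 0 in every group. A gene was tested if it reached an FPKM of 1 in at least 3 of 12 libraries, which 5527 genes did. It was called if edgeR gave an adjusted p under 0.05 and a fold change over 2. Under library totals the median log2 fold change of all tested genes was 0.06 for DNCB set against Solvent. For the 2 MSC groups set against DNCB it was -0.63 (scMSC) and -1.53 (scivMSC). Scaling by the trimmed mean of M values (TMM), which assumes that most genes do not move, placed these medians at -0.09, 0.06 and 0.04. Each direction below is therefore given with both scalings where they part. In whole blood, fewer cells of a type and less RNA per cell cannot be told apart.

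The 8 genes differed widely in level. Over the 12 libraries Mcl1 averaged an FPKM of 32.2 and Bcl2l1 21.0, above 95.9% and 93.8% of the tested genes other than hemoglobin. Bax averaged 2.25 and Bak1 2.01. Bcl2 averaged 1.13, a level above 30.5% of those genes. Bcl2l11 averaged 0.778, Bcl2a1b 0.568 and Bcl2a1d 0.543. Bcl2a1b and Bcl2a1d did not reach the level required for testing, so 6 of the 8 genes were tested. Bcl2l11 passed through 3 libraries alone (Solvent 1, DNCB 2 and scMSC 1). Gene positions are printed as the table gives them; the submitters' notes list mm8, but the positions of 8 of 8 members overlapped their RefSeq genes in GRCm38.p6.

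Mcl1 (ENSMUSG00000038612) lies on the plus strand of chromosome 3 at 95658788 to 95663176. Its product is a short-lived protein on which neutrophil survival depends. Mcl1 FPKM was 34.3, 26.2 and 18.7 in Solvent, against 65.1, 99.8 and 64.0 in DNCB. It was 22.8, 15.2 and 19.8 in scMSC and 9.98, 3.92 and 7.02 in scivMSC. Each DNCB library stood above every library of the other groups, each scivMSC library below every one, and the Solvent and scMSC ranges overlapped. Mcl1 rose with DNCB by 1.53 ± 0.34 (log2 fold change ± SE, n = 3 per group, edgeR quasi-likelihood test, adjusted p = 0.00352). It fell by 2.00 ± 0.34 from DNCB to scMSC (edgeR, adjusted p = 0.000709) and more from DNCB to scivMSC (-3.45 ± 0.36, edgeR, adjusted p = 4.47e-06). With TMM the same 3 changes were 1.38, -1.30 and -1.89, and all were called. Each was also called in every one of 12 fits that left out 1 library. The fall from Solvent to scivMSC, -1.92 by totals (adjusted p = 0.000298), was -0.51 by TMM and was then not called.

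**Figure D1:**
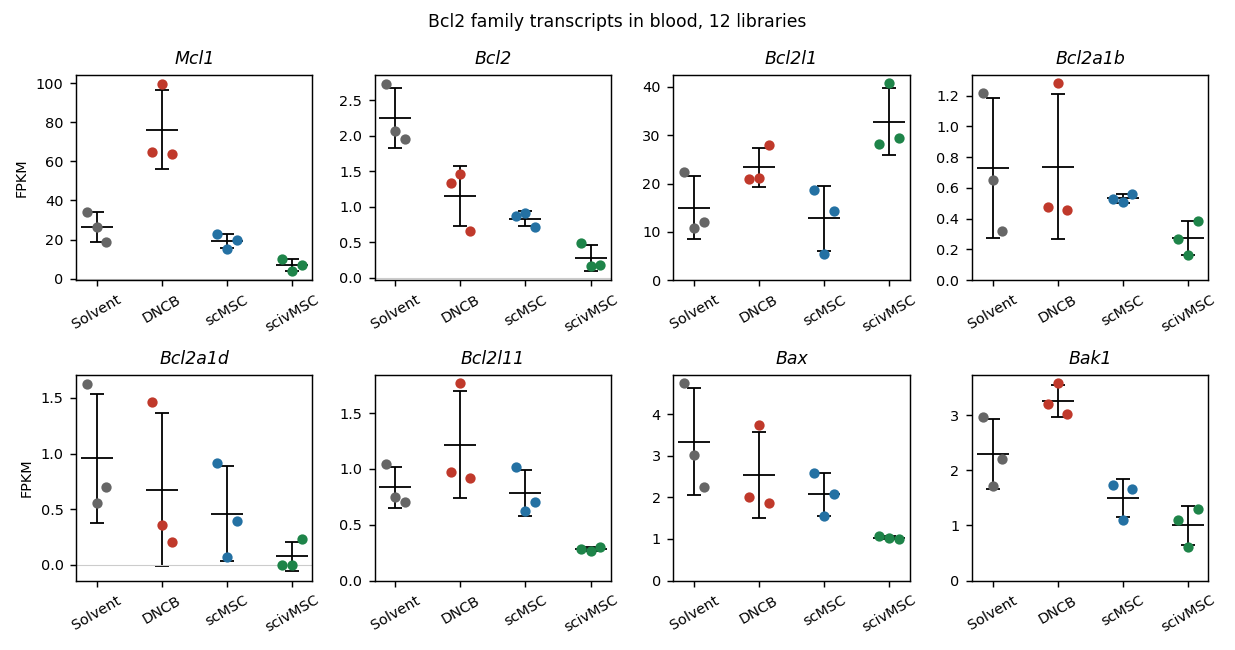
FPKM of the 8 Bcl2 family genes in each of the 12 blood libraries, by group. Points are single libraries, long bars are means and error bars are SD (n = 3). Mcl1 is highest in the DNCB libraries (64.0 to 99.8), Bcl2 in the Solvent libraries (1.95 to 2.73) and Bcl2l1 in the scivMSC libraries (28.3 to 40.8), and each panel has its own scale.

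Bcl2 (ENSMUSG00000057329) lies on the minus strand of chromosome 1 at 106538178 to 106714274, and the counting could not be checked for the opposite-strand gene D630008O14Rik that overlaps it. Mature T and B cells need its product to persist. Bcl2 FPKM was 2.73, 2.06 and 1.95 in Solvent, 1.33, 1.46 and 0.662 in DNCB, and 0.868, 0.919 and 0.717 in scMSC. In scivMSC it was 0.496, 0.168 and 0.186. All Solvent libraries were above all others and all scivMSC libraries below all others, while the ranges of DNCB and scMSC overlapped. By totals Bcl2 differed from Solvent by -0.96 ± 0.42 in DNCB (edgeR, adjusted p = 0.115), which was not called. TMM gave -1.15 for that comparison (adjusted p = 0.00338), which was called, as it was with library totals that leave out hemoglobin. Bcl2 fell from Solvent to scivMSC under both scalings, at -2.98 by totals (edgeR, adjusted p = 0.00016) and -1.64 by TMM (adjusted p = 0.000292). It also fell from DNCB to scivMSC by totals (-2.02, adjusted p = 0.000751), whereas TMM gave -0.49 (adjusted p = 0.135), not called. Between scMSC and DNCB the value was -0.47 by totals and 0.26 by TMM, neither called.

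Bcl2l1 (ENSMUSG00000007659) lies on the minus strand of chromosome 2 at 152780668 to 152831728. Its long product, Bcl-xL, keeps late erythroblasts alive and sets the lifespan of platelets. Bcl2l1 FPKM was 22.4, 10.7 and 12.0 in Solvent, 20.9, 21.1 and 28.0 in DNCB, and 18.6, 5.41 and 14.4 in scMSC. In scivMSC it was 28.3, 40.8 and 29.4, and these 3 libraries were above every other library. The Solvent libraries overlapped both DNCB and scMSC, and the scMSC libraries were all below the DNCB libraries. Bcl2l1 rose from scMSC to scivMSC by 1.36 ± 0.38 by totals (edgeR, adjusted p = 0.0186) and by 2.53 by TMM (adjusted p = 0.00298). It rose from Solvent to scivMSC by 1.12 (adjusted p = 0.0164) and 2.81 (adjusted p = 0.00024). Against DNCB the scivMSC value was 0.48 ± 0.38 by totals (adjusted p = 0.258), not called, and 2.24 by TMM (adjusted p = 0.000782), called, as was 1.08 with totals that leave out hemoglobin. In scMSC against DNCB it was at -0.88 (adjusted p = 0.0921), not called, and passed without scMSC 1 (-1.25, adjusted p = 0.045). Leaving out scMSC 2, whose value was the lowest, took the fold of scivMSC over scMSC to 0.999 on the log2 scale, just under the limit for a call. The value against Solvent was likewise no longer called without Solvent 2 (0.92), Solvent 3 (0.98) or scivMSC 2 (0.94).

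The 2 A1 copies were close to the limit of detection. Bcl2a1b (ENSMUSG00000089929) and Bcl2a1d (ENSMUSG00000099974) lie on chromosome 9, at 89199209 to 89207827 on the plus strand and at 88723285 to 88731914 on the minus strand. A1 copies in the mouse are nearly identical, so how reads were divided among them is uncertain, and each of the 2 genes also overlaps another gene (Gm29094 and Gm10634). Bcl2a1b had an FPKM of 1.22, 0.650 and 0.319 in Solvent, 0.477, 1.28 and 0.456 in DNCB, and 0.526, 0.509 and 0.564 in scMSC. In scivMSC it had 0.266, 0.165 and 0.385, on estimated counts of 8 to 18. The first 3 groups overlapped one another, and scivMSC was below DNCB and scMSC but overlapped Solvent. Bcl2a1d had an FPKM of 1.62, 0.556 and 0.696 in Solvent, 1.46, 0.362 and 0.207 in DNCB, and 0.918, 0.0693 and 0.394 in scMSC. It was at 0 in 2 scivMSC libraries and at 0.229 in the other, or 12 estimated counts. That is the level taken here as the floor, on the assumption that a fragment is worth 4 counts. Without the filter on low values edgeR called neither copy in any comparison with DNCB, and called Bcl2a1d in scivMSC against Solvent (adjusted p = 0.0264). Bcl2a1a, another A1 copy that was also untested, was at 0 in all 3 scivMSC libraries, while in the DNCB libraries it was between 0.200 and 0.722. Libraries at 0 also occurred in Solvent (0 to 1.04) and scMSC (0 to 0.331).

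Of the death genes, Bcl2l11 (ENSMUSG00000027381; chromosome 2, 128126038 to 128162547, plus strand) encodes Bim, which shortens the life of neutrophils and removes spent lymphocytes. Its FPKM was 1.04, 0.751 and 0.707 in Solvent, 0.971, 1.77 and 0.914 in DNCB, and 1.02, 0.622 and 0.707 in scMSC. In scivMSC it was 0.284, 0.260 and 0.297, below every other library, while the other 3 groups overlapped. Bcl2l11 fell from DNCB to scivMSC by totals (-2.12 ± 0.39, edgeR, adjusted p = 0.000201), and TMM gave -0.39 (adjusted p = 0.219), not called. In DNCB against Solvent it was at 0.54 (adjusted p = 0.327) and in scMSC against DNCB at -0.65 (adjusted p = 0.201), neither called, and TMM turned the latter to 0.06.

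Bax (ENSMUSG00000003873; chromosome 7, 45461697 to 45466898, minus strand) and Bak1 (ENSMUSG00000057789; chromosome 17, 27019810 to 27029009, minus strand) encode the effectors that open the outer membrane. Both overlap other genes, Bax with Gm45808 and Bak1 with Ggnbp1 and Gm50253. Bax FPKM was 4.76, 3.01 and 2.26 in Solvent, 2.01, 3.74 and 1.86 in DNCB, and 2.59, 1.56 and 2.09 in scMSC. In scivMSC it was 1.08, 1.02 and 0.995, below every other library, and the other 3 groups overlapped. Bak1 FPKM was 2.96, 1.71 and 2.20 in Solvent, 3.19, 3.58 and 3.01 in DNCB, 1.74, 1.11 and 1.66 in scMSC, and 1.10, 0.605 and 1.29 in scivMSC. Bak1 was thus highest in the DNCB libraries, which overlapped no other group, and scivMSC overlapped scMSC. Bax fell from DNCB to scivMSC by totals (-1.28 ± 0.43, edgeR, adjusted p = 0.0141), but TMM reversed the value to 0.45, not called. The call of Bax by totals was lost without DNCB 2 (-0.89, adjusted p = 0.0964). It was also lost with totals that leave out hemoglobin (-0.66, edgeR, adjusted p = 0.0641), limma on log2(FPKM + 1) and DESeq2. Bak1 fell from DNCB to scivMSC by totals (-1.71 ± 0.40, adjusted p = 0.00147), and TMM gave -0.10, not called. It also fell from DNCB to scMSC (-1.13 ± 0.39, edgeR, adjusted p = 0.0416), whereas TMM gave -0.46 (adjusted p = 0.15), not called. The call by totals was also lost with totals that leave out hemoglobin, limma on log2(FPKM + 1), DESeq2 and no filter. It remained in 4 of 12 fits with 1 library left out and was lost without Solvent 2, Solvent 3, or any 1 of the DNCB or scMSC libraries (adjusted p of up to 0.174).

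Taken by comparison, 1 of the 6 tested genes, Mcl1, was called in DNCB against Solvent, where the background was 20.5% of all tested genes (15.6% higher and 4.87% lower). In 3 of the 8 genes (Mcl1, Bcl2 and Bak1) the libraries of these groups did not overlap, which held for 41.5% of all tested genes. In scMSC against DNCB 2 genes were called, Mcl1 and Bak1, both lower (background 26.1%, of which 24.9% lower and 1.27% higher), and 3 genes did not overlap, Mcl1, Bcl2l1 and Bak1 (background 55.3%). In scivMSC against DNCB 5 of the 6 were called lower by totals, all but Bcl2l1, where 63.4% of all tested genes were called, 62% lower and 1.43% higher. All 6 tested members did not overlap in that comparison, where 73.3% of all tested genes did not, and neither did the untested Bcl2a1b. By TMM it was 2 of 6, Mcl1 lower and Bcl2l1 higher, where TMM called 39.4% of all tested genes (20.6% higher and 18.9% lower). In the first pair of comparisons TMM called Mcl1 and Bcl2 in DNCB against Solvent (background by TMM 27.6%, 16.1% higher and 11.5% lower). It called Mcl1 alone in scMSC against DNCB (background by TMM 21.1%, 8.74% higher and 12.3% lower). The 2 MSC groups share the DNCB libraries as their reference. Between them, in scivMSC against scMSC, 4 of the 6 were called by totals, where 30.8% of all tested genes were called (30.4% lower and 0.344% higher). These were Mcl1 (-1.45), Bcl2 (-1.54) and Bcl2l11 (-1.46), which were lower, and Bcl2l1, which was higher. Of the 8 members 6 did not overlap, the untested Bcl2a1b among them (background of tested genes 50.5%). TMM called Bcl2l1 alone there, where it called 18% of all tested genes (13.1% higher and 4.92% lower).

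**Figure D2:**
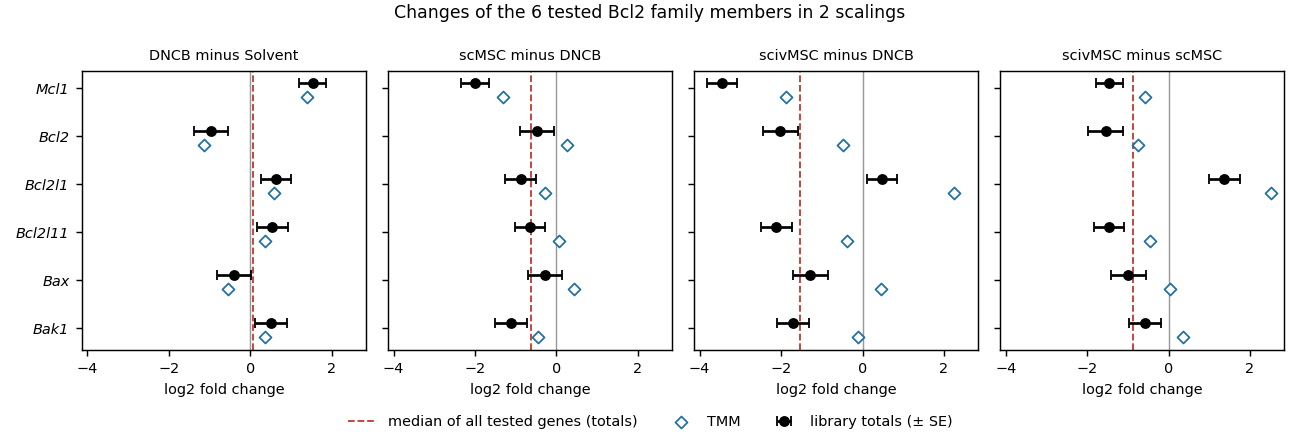
Log2 fold changes of the 6 tested genes in 4 comparisons. Filled circles with bars are edgeR estimates with library totals ± SE, open diamonds are TMM estimates and the dashed line is the median of all tested genes by totals. Mcl1 keeps its side of 0 in both scalings in all 4 panels, and Bcl2l1 is the member on the right of 0 in both scivMSC panels by both scalings.

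Set against Solvent, no member passed the test in scMSC, while in scivMSC Bcl2l1 was higher and the other 5 tested members were lower by totals. In scMSC against Solvent edgeR called 0 of the 6 genes, where 0.651% of all tested genes were called, 0.326% higher and 0.326% lower. One gene, Bcl2, had an unadjusted p under 0.05, at a log2 fold change of -1.44 (adjusted p = 0.0953), and TMM, DESeq2 and limma also called 0. Of all tested genes TMM called 8.5% there (7.29% higher and 1.21% lower) and DESeq2 10.1%. Bcl2 was the 1 member of 8 that did not overlap there (background 47.6%), and it was called when scivMSC 1 or scivMSC 2 was left out of the fit (adjusted p = 0.0281 and 0.024). In scivMSC against Solvent all 6 were called by totals, Bcl2l1 higher and the other 5 lower, where 61.8% of all tested genes were called, 59.2% lower and 2.59% higher. TMM kept 2 of these, Bcl2l1 and Bcl2, where it called 35.8% of all tested genes (22.4% higher and 13.4% lower), and it turned Bak1 to 0.26, not called. The libraries of all 6 tested members did not overlap, which held for 68.7% of all tested genes, nor did those of the untested Bcl2a1d. Bak1 lost its call there without Solvent 1 (adjusted p = 0.0531) and without scivMSC 2, where its fold was under 2 (-0.94). Over all 4 groups the edgeR F test gave an adjusted p under 0.05 for all 6 genes by totals, as for 72.3% of all tested genes, and for 3 by TMM, Mcl1, Bcl2 and Bcl2l1, where 70% of all tested genes passed.

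Within a library, the ratio of 1 gene to another does not depend on how libraries are scaled, provided that nothing is added to the values. This holds for the shares of summed FPKM given next. The log2 ratios after them add a small constant to each FPKM, so they still depend in part on scaling. That dependence is largest where FPKM is low, as for Bcl2 and Bcl2l11 in scivMSC. Of the summed FPKM of the 5 survival genes, Mcl1 made up 58.6% ± 5.71 (SD, n = 3) in Solvent, 74.0% ± 6.03 in DNCB, 58.7% ± 8.81 in scMSC and 17.7% ± 8.50 in scivMSC. Bcl2l1 made up 32.8% ± 5.29, 23.5% ± 6.50, 35.7% ± 9.79 and 80.7% ± 9.17 in the same order. In the scivMSC libraries Bcl2l1 held 72.5%, 90.6% and 79.0%, and in no other library did it exceed 42.6%. Bcl2 never held more than 5.79%, with means of 5.10% in Solvent, 1.12% in DNCB, 2.72% in scMSC and 0.714% in scivMSC. The sum itself was 45.4 ± 15.1 in Solvent, 102 ± 19.0 in DNCB, 33.8 ± 10.9 in scMSC and 40.4 ± 4.12 in scivMSC. The scivMSC sums (37.2 to 45.1) overlapped those of Solvent and scMSC, although the shares of Mcl1 and Bcl2l1 in them did not.

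**Figure D3:**
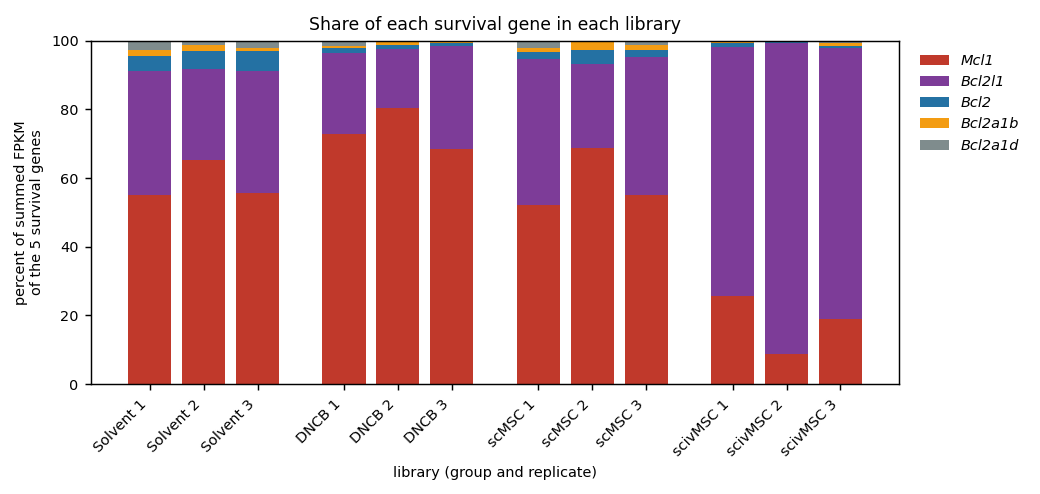
Percentage of the summed FPKM of the 5 survival genes that each gene makes up, 1 bar per library. Mcl1 is the larger part in the 9 Solvent, DNCB and scMSC libraries (52.1% to 80.5%), and Bcl2l1 in the 3 scivMSC libraries (72.5% to 90.6%).

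The ratio of the erythroid-associated Bcl2l1 to the myeloid-associated Mcl1, as log2 of FPKM + 0.1, was -0.61, -1.28 and -0.64 in Solvent and -1.63, -2.24 and -1.19 in DNCB. It was -0.29, -1.47 and -0.46 in scMSC and 1.49, 3.35 and 2.05 in scivMSC, so that scivMSC alone was above 0. An exact permutation test of the F statistic over the 15400 splits of 12 libraries into 4 groups gave p = 0.00312 (adjusted p = 0.00499 over the 8 ratios examined). The geometric mean ratio in scivMSC was 15.8-fold that in DNCB, 8.21-fold that in scMSC and 8.81-fold that in Solvent. The other 3 groups overlapped one another.

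The ratio of Mcl1 to the lymphoid-associated Bcl2 had means of 3.47 ± 0.24 (log2, SD, n = 3) in Solvent, 5.97 ± 0.44 in DNCB, 4.36 ± 0.39 in scMSC and 4.21 ± 0.38 in scivMSC (exact permutation test, p = 0.00117, adjusted p = 0.00499). It was 5.66-fold higher in DNCB than in Solvent. In scMSC and scivMSC it was 0.327 and 0.295 of the DNCB value, and those 2 groups, at a ratio of 0.902 to each other, overlapped. Both were still above all Solvent libraries, by 1.85-fold and 1.67-fold. The 0.1 added to each FPKM lowers ratios to Bcl2 most in scivMSC, where Bcl2 was lowest (0.168 to 0.496). Without it the scivMSC ratio would stand higher against the other groups, so 0.902 does not settle which MSC group was higher. The ratio of Bcl2l1 to Bcl2 stood at 2.63, 4.28, 3.62 and 6.51 in Solvent, DNCB, scMSC and scivMSC (exact permutation p = 0.00266, adjusted p = 0.00499), and scivMSC did not overlap any other group. For single pairs of groups, 3 libraries against 3 cannot give a two-sided exact p below 0.1, so no pair of groups could reach 0.05 on its own.

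**Figure D4:**
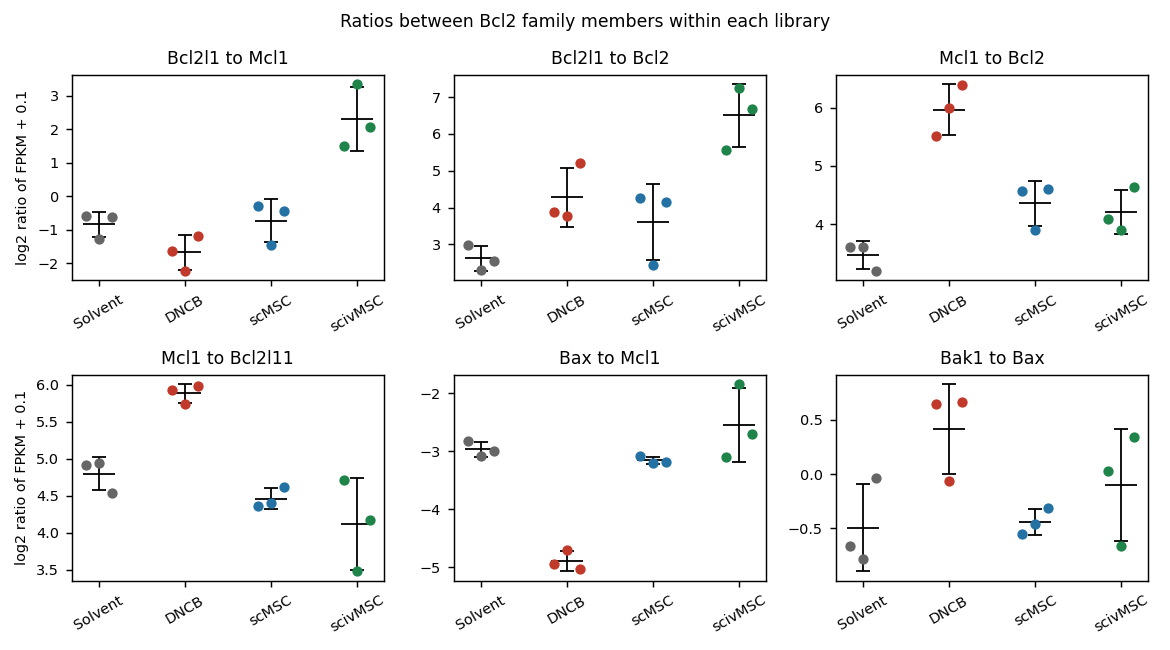
Log2 ratios between pairs of Bcl2 family genes (FPKM + 0.1) in each library, by group, with means and SD (n = 3). Bcl2l1 to Mcl1 is above 0 in the scivMSC libraries alone (1.49 to 3.35), and Mcl1 to Bcl2, Mcl1 to Bcl2l11 and Bax to Mcl1 set the DNCB libraries apart from the other groups.

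Ratios between Mcl1 and the death genes Bcl2l11 and Bax set the DNCB libraries apart. Both share Mcl1, the 1 member called in DNCB against Solvent by totals, so they are not independent results. Mcl1 to Bcl2l11 had means of 4.80 ± 0.23 in Solvent, 5.88 ± 0.13 in DNCB, 4.46 ± 0.14 in scMSC and 4.12 ± 0.62 in scivMSC (log2, SD, n = 3, exact permutation p = 0.00305, adjusted p = 0.00499). Bax to Mcl1 was at -2.96 ± 0.13, -4.89 ± 0.17, -3.16 ± 0.06 and -2.55 ± 0.64 in the same order (exact permutation p = 0.00162, adjusted p = 0.00499). DNCB libraries thus held 0.263 times the Bax per Mcl1 of the Solvent libraries, and the DNCB range overlapped no other group in either ratio. Bak1 to Bax, the ratio of the 2 effectors, had means of -0.49, 0.42, -0.44 and -0.10 (exact permutation p = 0.0772, adjusted p = 0.0882). The A1 ratios rested on few reads. Bcl2a1b to Bcl2 had an adjusted p of 0.0431 (exact permutation p = 0.0323), with means of -1.64, -0.65, -0.56 and 0.01, and rose above 0.05 in 8 of 12 fits with 1 library left out. Bcl2a1d to Bcl2 gave an exact permutation p of 0.987.

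Markers of the cell types moved with several of these values. The summed FPKM of 10 neutrophil markers was 221 to 445 in Solvent, 6995 to 10978 in DNCB, 579 to 721 in scMSC and 247 to 743 in scivMSC. Like Mcl1 it was highest in DNCB, but unlike Mcl1 it overlapped Solvent in scivMSC. The sum of 8 monocyte markers, 9.66 to 22.6 in Solvent and 32.2 to 49.0 in DNCB, was 14.7 to 17.3 in scMSC and 9.36 to 12.4 in scivMSC. The 10 T cell markers summed to 114 to 200 in Solvent, 45.6 to 61.2 in DNCB, 55.4 to 81.5 in scMSC and 16.4 to 39.4 in scivMSC. The 8 B cell markers ran from 52.7 to 181, 15.3 to 44.1, 15.6 to 24.2 and 4.05 to 9.49. Both lymphocyte sums, like Bcl2, were highest in Solvent and lowest in scivMSC without overlap. All these sums are scaled to library totals and were not rescaled by TMM. By totals 59.2% of all tested genes were called lower in scivMSC against Solvent and 62% against DNCB. The 5 natural killer cell markers in the table summed to 30.6 to 37.7 in Solvent and to between 5.55 and 17.4 in the other libraries. The 9 erythroid markers in the table overlapped in all groups (4384 to 5633 over the 12 libraries), unlike Bcl2l1. Sums of the 8 platelet markers overlapped among the 3 DNCB-treated groups (607 to 957). Solvent, at 389 to 614, overlapped DNCB (607 to 836) and was below both MSC groups. No marker was at 0 in all 3 libraries of a group. The part of these cell types in the values of the Bcl2 family was not tested.

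The genes whose profile over the 12 libraries lay nearest to each survival gene were named by the smallest root mean square distance on log2(FPKM + 1), each profile centered on its mean. For Mcl1 these were Slfn1 (0.142), Rac2 (0.161) and Cotl1 (0.188). Rac2 is a small GTPase of blood cells, and Cotl1 binds actin. Rac2 had mean FPKM of 28.1 in Solvent, 71.0 in DNCB, 17.0 in scMSC and 8.19 in scivMSC. For Bcl2 they were Dhx15 (0.116), Etnk1 (0.123) and Tpr (0.126), which encode a helicase, a kinase of ethanolamine and a nuclear pore protein. For Bcl2l1 they were Slc25a37 (0.294), Atg4a (0.294) and Car2 (0.305). Slc25a37 encodes mitoferrin, which brings iron into the mitochondria of erythroid cells, and Car2 a carbonic anhydrase of red cells. Slc25a37 had mean FPKM of 36.1, 64.4, 28.7 and 66.5 in Solvent, DNCB, scMSC and scivMSC. For Bcl2a1b they were Zmym5 (0.123), Stx16 (0.125) and Washc1 (0.127), against a root mean square of 0.279 for the profile of Bcl2a1b itself about its mean.

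Other genes of the pathway came from a list of 37 Bcl2 family and apoptosis genes, of which 34 were in the table and 16 were tested. With DNCB, 3 of the 16 were called higher than in Solvent and 0 lower, against 15.6% and 4.87% of all tested genes. They were the death receptor gene Fas, the BH3-only gene Bid and the mitochondrial BH3 protein gene Bnip3. Bnip3 reached an FPKM of 1 in the 3 DNCB libraries alone (2.07, 4.23 and 2.32, against at most 0.705 elsewhere), so it was tested through the group in which it was high and its calls against DNCB are no support. Fas and Bid rose by log2 fold changes of 1.75 (edgeR, adjusted p = 0.00892) and 1.48 (adjusted p = 0.00721). Bid FPKM was 1.83, 1.94 and 0.886 in Solvent and 4.34, 4.74 and 3.91 in DNCB, with no overlap. Fas was no longer called without Solvent 3 (adjusted p = 0.0507). Birc3 was called higher only without Solvent 1 (1.44, adjusted p = 0.0349).

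In scMSC against DNCB 1 of the 16 genes was called higher, Birc2, and 3 lower, Fas, Birc3 and, by the choice of tested genes, Bnip3, where 1.27% of all tested genes were called higher and 24.9% lower. Birc2 and Birc3 encode inhibitor of apoptosis proteins that act downstream of tumor necrosis factor receptors, and in these libraries they moved in opposite directions. Birc2 FPKM was 3.28, 3.87 and 2.47 in DNCB, 7.16, 6.91 and 8.28 in scMSC and 7.13, 6.63 and 6.29 in scivMSC. The DNCB libraries were below all libraries of both MSC groups, and Solvent (5.76, 4.02 and 3.89) was above DNCB. Birc2 rose from DNCB by 1.20 in scMSC (edgeR, adjusted p = 0.00559) and by 1.05 in scivMSC (adjusted p = 0.00412), and TMM gave 1.91 and 2.77, both called. By totals the scivMSC value fell just under a 2-fold change without DNCB 3 (0.89) or scivMSC 1 (0.999). Birc3 fell from DNCB to scMSC (-1.61, adjusted p = 0.0105) and to scivMSC (-3.11, adjusted p = 3.2e-05), and TMM gave -0.88, under a 2-fold change, and -1.50. The scMSC call of Birc3 was lost without DNCB 2 or scMSC 2, and that of Fas (-1.70, adjusted p = 0.00905) without scMSC 2 or scMSC 3. Bnip3 FPKM was 0.406, 0.132 and 0.262 in scMSC and 0.457, 0.0594 and 0.116 in scivMSC.

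In scivMSC against DNCB 10 of the 16 genes, Bnip3 included, were called lower and 1 higher by totals, near the background of 62% lower. By TMM 5 were called higher and 4 lower, against 20.6% and 18.9% of all tested genes. The caspase inhibitor gene Xiap was among the 10 (-1.85 by totals, -0.28 by TMM and then not called). Bid was at -1.47 by totals (adjusted p = 0.00211), and TMM reversed it to 0.19, not called. Bnip3l, an erythroid gene that clears mitochondria from maturing red cells, was by far the most abundant gene of the list, at a mean FPKM of 253 in Solvent, 242 in DNCB, 221 in scMSC and 314 in scivMSC. It was not called by totals in the 3 comparisons (-0.06, -0.14 and 0.37), and TMM called it higher in scivMSC against DNCB (2.06).

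**Figure D5:**
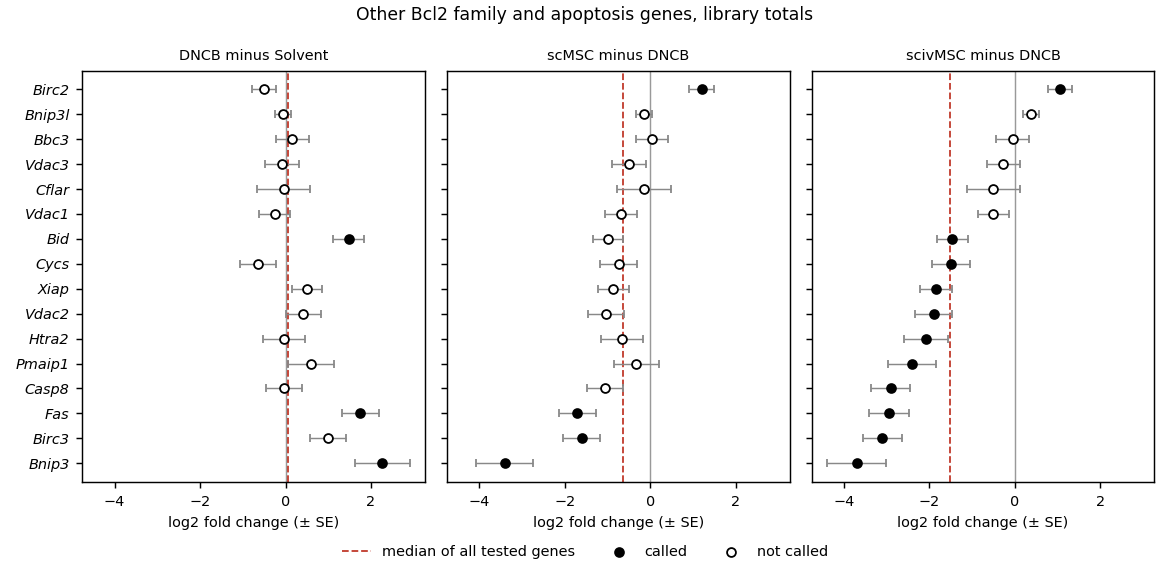
Log2 fold changes (± SE, library totals) of the 16 tested genes of the wider apoptosis list in 3 comparisons. Filled circles are called genes, open circles are not, and the dashed line is the median of all tested genes. Birc2 is the called gene to the right of 0 in both MSC panels, and Birc3 and Fas are called to the left of 0 in both, as is Bnip3, which was tested through its DNCB libraries alone.

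The list held other genes too low to be tested. Bad, a BH3-only gene, had a mean FPKM of 0.431 in Solvent, 1.45 in DNCB, 0.402 in scMSC and 0.265 in scivMSC. Apaf1, which encodes the scaffold of the apoptosome, had means of 0.389, 0.829, 0.287 and 0.0886. With no filter, edgeR gave Bad an adjusted p of 0.124 in DNCB against Solvent and Apaf1 one of 0.316. Against DNCB, scivMSC was called lower for both (Bad -2.43, adjusted p = 0.004, and Apaf1 -3.21, adjusted p = 2.22e-05), and scMSC for neither. That fit called 5780 of 25247 genes lower in scivMSC against DNCB and 1174 lower in scMSC against DNCB. Bcl2l2, a survival gene, averaged under 0.24 in every group and was called in none of the 3 comparisons. Bcl2a1c, Bcl2l10 and Hrk had no entry in the table. In scMSC against Solvent edgeR called 0 of the 16 tested genes, 4 had an unadjusted p under 0.05, and TMM and DESeq2 called 2. The share of all tested genes called there was 0.651% by totals, 8.5% by TMM and 10.1% by DESeq2.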

How the data were processed

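Blood RNA was sequenced in 12 libraries, 4 groups of 3, grouped by the sample titles. The submitters' processing notes list HISAT2 2.0, Bowtie 0.12.2, StringTie 1.3.0 and build mm8, without their roles; gene positions in the table overlapped those of GRCm38.p6 for 99.9% of 21441 matched genes, 8 of 8 members included. The strand used in counting is not given in the sources used here. The deposited table holds an estimated count and an FPKM per gene and library, made by the authors; FPKM is scaled to library totals, hemoglobin included. Of the deposited counts from 1 to 12, 29.0% equal 4 and 16.0% equal 8, while 9.68% equal 1 and 9.07% equal 2. A fragment may thus often be worth about 4 counts, but not always. All value columns belonged to a listed sample.

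The estimated counts, whole numbers as deposited, were fitted with edgeR 4.0.16 (quasi-likelihood, 4 group means, library totals) in R 4.3.3, on genes with FPKM of at least 1 in at least 3 libraries, with Benjamini-Hochberg adjustment over 5527 genes. Ratios of FPKM + 0.1 were tested by exact permutation in Python 3.11.15 with numpy 2.4.6. Alternatives were TMM, totals without hemoglobin, limma 3.58.1, DESeq2 1.42.0, other filters and pseudocounts, a fit of the 6 libraries compared, a replicate block and leaving out each library. Members and lists were chosen with earlier results of these data known. The 8 members were named whatever their values; list genes were 8 fixed names and up to 3 called genes with the largest rise and fall in each of 3 comparisons; profile neighbors were the 3 nearest tested genes for 4 members, leaving out systematic names. One gene beyond the 37 of the apoptosis list is not reported here.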

Additional observations from a re-analysis of the deposited data

Results flagged for a closer look

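The effects of the 2 injection routes, each against the same DNCB libraries, differed for 4 of the 6 tested Bcl2 family genes, by a test of the difference itself (scivMSC against scMSC, where 30.8% of all tested genes were called). On the log2 scale, with edgeR and library totals, the difference was -1.45 for Mcl1 (adjusted p = 0.0111), -1.54 for Bcl2 (adjusted p = 0.0178), -1.46 for Bcl2l11 (adjusted p = 0.0146) and 1.36 for Bcl2l1 (adjusted p = 0.0186). The 3 scivMSC libraries overlapped the 3 scMSC libraries for none of the 4. Bcl2l1 was the 1 gene of the 4 that was higher with the combined route, against 0.344% of all tested genes called higher by totals. With TMM, which called 13.1% of all tested genes higher and 4.92% lower, Bcl2l1 was called (2.53, adjusted p = 0.00298), whereas Mcl1 (-0.59, adjusted p = 0.0186) and Bcl2 (-0.75, adjusted p = 0.0436) were under a 2-fold change and Bcl2l11 was at -0.45 (adjusted p = 0.191). In a fit of the 6 libraries alone edgeR called 0 of the 6 genes, with 4 at an unadjusted p under 0.05. That fit called only 4 of all 5527 tested genes. Without scMSC 1 the calls were Mcl1 and Bcl2l1 (Bcl2 at an adjusted p of 0.0555 and Bcl2l11 at 0.0655), and without scivMSC 3 Bcl2 had an adjusted p of 0.0703. The scMSC libraries had 15195 to 15298 genes with at least 4 counts and the scivMSC libraries 11806 to 14974, and the part of this in the differences was not tested.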

How the results depend on the processing

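Scaling and filters changed several counts of called members. DNCB against Solvent called 1 member by totals and 2 (Mcl1 and Bcl2) by TMM, by totals without hemoglobin and by DESeq2. Of all 5527 tested genes these 3 alternatives called 1523, 1432 and 1558. For scMSC against DNCB the 2 calls became 1, Mcl1, by TMM, totals without hemoglobin, limma on log2(FPKM + 1), DESeq2, no filter and a mean FPKM of at least 5. In the same order, the first 4 of these called 1164, 1187, 972 and 1225 of all 5527 tested genes. No filter called 1238 of 25247 and the mean FPKM filter 337 of 1095. For scivMSC against DNCB the 5 calls became 2 by TMM and DESeq2 (Mcl1 and Bcl2l1) and by limma on log2(FPKM + 1) (Mcl1 and Bak1), and 1 with a mean FPKM of at least 5, where 2 members remained to be tested. Of all 5527 tested genes TMM called 2180 there, DESeq2 2232 and limma 2005, and the mean FPKM filter gave 532 of 1095. Totals without hemoglobin also called 5 members there, with Bcl2l1 (higher) in place of Bax (lower), and 2908 of all 5527 tested genes. For scivMSC against Solvent 6 became 2 by TMM and DESeq2 (Bcl2 and Bcl2l1), where these called 1981 and 2028 of all 5527 tested genes. With a mean FPKM of at least 5 both of the 2 members tested were called, where 485 of 1095 genes were. For scivMSC against scMSC 4 became 1 by TMM and DESeq2 (Bcl2l1), 2 by limma on log2(FPKM + 1) and with a mean FPKM of at least 5, and 0 in the fit of the 6 libraries. Of all 5527 tested genes TMM called 994 there, DESeq2 1091, limma 335 and the fit of the 6 libraries 4. With a mean FPKM of at least 5 it was 174 of 1095, and 2 members were tested. For scMSC against Solvent 0 became 1, Bcl2, with totals without hemoglobin and with the 6 libraries compared, which called 398 and 1149 of all 5527 tested genes. Over 4 groups 6 became 3 by TMM and DESeq2 and 2 with a mean FPKM of at least 5, where 2 members were tested. With 1 library left out the counts ran from 1 to 1, 1 to 2, 4 to 5, 0 to 1, 4 to 6 and 2 to 4 for DNCB against Solvent, scMSC against DNCB, scivMSC against DNCB, scMSC against Solvent, scivMSC against Solvent and scivMSC against scMSC, and from 5 to 6 over 4 groups. In those 6 comparisons, 788 to 1424, 813 to 1804, 3000 to 3959, 4 to 824, 2830 to 3848 and 512 to 2944 of all 5527 tested genes were called. The adjusted p of Bcl2a1b to Bcl2 was 0.0668 with a pseudocount of 0.01 and 0.0152 to 0.162 with 1 library left out; the other 7 ratios kept their side of 0.05 under every alternative run.

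Directions turned as follows (log2 fold change by TMM, then by DESeq2). In scMSC against Solvent, Mcl1 was at 0.077 and 0.072, Bcl2l1 at 0.29 and 0.28, and Bcl2l11 at 0.42 and 0.42. In scMSC against DNCB, Bcl2 was at 0.26 and 0.23, Bcl2l11 at 0.062 and 0.028, Bax at 0.42 and 0.39, and Bnip3l at 0.49 and 0.44. In scivMSC against DNCB, Bax was at 0.45 and 0.45, and Bid at 0.19 and 0.19. Bak1 was at 0.26 and 0.29 in scivMSC against Solvent and at 0.36 and 0.38 against scMSC, where Bax was at 0.029 and 0.062. Totals without hemoglobin gave 0.11 for Bcl2l11 in scMSC against Solvent, and 0.11 for Bax and 0.21 for Bnip3l in scMSC against DNCB. With 1 library left out, some values near 0 turned. In scMSC against Solvent, Bcl2l1 ran from -0.62 to 0.17 and Bcl2l11 from -0.34 to 0.088, above 0 without Solvent 1 or scMSC 2. In scMSC against DNCB, Bax ran from -0.48 to 0.099, above 0 without DNCB 2, and Bnip3l from -0.27 to 0.0059, above 0 without DNCB 3. Bnip3l in DNCB against Solvent ran from -0.21 to 0.064, above 0 without Solvent 1, DNCB 1 or DNCB 2. The cause was not tested.

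Same-numbered libraries of different groups did not deviate together (median correlation 0.0255, with 3 of 18 above 0.1). These correlations cannot exclude that the numbers pair the samples. With the replicate number as a block edgeR called 1, 2, 5, 0, 6 and 4 members in the 6 comparisons, in the order given above. The A1 copies rested on between 0 and 94 estimated counts per library.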
